A study of Rattus norvegicus with 16 samples.

Results

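Dbp, Tef and Hlf encode the 3 PAR bZIP transcription factors, activators named for a region rich in proline and acidic amino acids beside their basic leucine zipper. Every probe set annotated with one of these symbols was taken, which gave 6 of the 8740 probe sets that are not controls on a rat Affymetrix array, and 3 of its 4736 named genes. Dbp had 2 probe sets (J03179_at and J03179_g_at), Tef had 1 (S58745_at) and Hlf had 3 (S79817mRNA_at, S79820_at and S79820_g_at). A filter on the mean level, at the 40th percentile of all probe sets, was passed by both Dbp probe sets, the Tef probe set and Hlf S79817mRNA_at. The other two Hlf probe sets were dimmer, at percentiles 31.4 and 6.32 of the retina means, and their values are described separately.

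The arrays measured total RNA of rat retina (12 arrays) and pineal gland (4 arrays) at hours 6 and 12 of Zeitgeber time (ZT) or circadian time (CT). Each of the groups ZT6, ZT12, CT6 and CT12 had 3 retina arrays, numbered 1 to 3 in the titles, and 1 pineal array. Zeitgeber time is conventionally counted from lights on in a light-dark cycle and circadian time by the internal clock without one. Strain, sex, age and lighting, and whether the numbered arrays came from separate animals, are not stated in the labels, so p-values measure only the spread between these samples. The pineal ZT12 array is titled with hour 12, while its description gives hour 6, and the title was used. Tissue was also taken from the titles: the source names call every array retina, and 5 arrays carry the source name brain, retina in place of eye, retina. The 5 are every retina array numbered 3 and the pineal ZT12 array. These are bulk tissues, in which fewer cells of a type and less RNA per cell cannot be told apart.

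In the core clock, CLOCK and BMAL1 drive genes through E-boxes, and Dbp is one of the best known of these outputs. The PAR bZIP proteins in turn bind D-box elements, where they activate clock genes such as Per1 and a set of metabolic enzymes, and where the repressor NFIL3 (E4BP4) competes with them. The pineal gland makes melatonin under the control of the central clock, and the retina has a clock of its own. The labels name no question, and the groups allow the 2 hours to be compared in each tissue and under each regime.

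The promoter windows of Dbp and Tef are printed because the E-box is the element through which the clock is known to act on this family. Both are the 250 bases before the start site that a RefSeq table on the GRCr8 build gives for the gene, plus strand, at chr1:105312006-105312255 for Dbp and chr7:115206577-115206826 for Tef. Capitals mark the E-box CACGTG and the CCAAT box, which reads ATTGG where it lies on the other strand.
Dbp: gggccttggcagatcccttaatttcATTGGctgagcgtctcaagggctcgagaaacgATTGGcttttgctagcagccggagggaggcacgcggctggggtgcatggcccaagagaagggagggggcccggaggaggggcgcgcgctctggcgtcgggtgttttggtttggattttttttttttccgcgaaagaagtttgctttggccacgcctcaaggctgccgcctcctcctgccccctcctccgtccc
Tef: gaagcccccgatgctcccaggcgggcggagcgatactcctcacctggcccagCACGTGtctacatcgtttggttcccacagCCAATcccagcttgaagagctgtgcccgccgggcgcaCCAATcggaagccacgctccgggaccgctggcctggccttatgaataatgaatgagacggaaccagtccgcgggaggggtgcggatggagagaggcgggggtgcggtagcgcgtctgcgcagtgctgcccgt
The Tef window held 1 CACGTG, starting at position -198 from the start, and CCAAT at -169 and -132. The Dbp window held no CACGTG and had the CCAAT box on the other strand at -225 and -193. Of 33469 promoter windows of this length, 5.59% held CACGTG and 34.0% held CCAAT on either strand. Neither window held the variant E-box CACGTT (4.07% of windows) or the D-box forms TTATGTAA (0.828%) and TTACGTAA (0.108%), searched on both strands and with no overlap between motifs. A match is a description of letters and not of binding, and no match says only that these letters are not in this window. The Dbp gene spans positions 105312256 to 105317205 of chromosome 1, and Hlf spans 75651320 to 75708979 of chromosome 10. The annotated span of Tef, 115197180 to 115221930 on chromosome 7, contains the printed window, so the Tef window precedes a start site inside the gene and not the gene's first base.

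One retina array stood apart. The median Spearman correlation of CT12 array 1 with the other retina arrays was 0.699, against 0.918 to 0.954 for the other 11. On it the mean log2 level of the rod markers measured (5 of 12 on the array) was 11.94, against 15.46 to 16.31 elsewhere in the retina. Ganglion cell markers (6 of 8) were at 9.73 against 12.56 to 13.23 and synaptic vesicle markers (13 of 14) at 10.20 against 11.92 to 12.65, while lens markers (11 of 18) were at 17.22 against 11.04 to 17.00. The 17.00 was on another CT12 array, so leaving out CT12 array 1 does not remove the high lens level of that group. Mean lens marker levels were 13.58 and 13.65 at hour 6 of ZT and CT, and 14.85 and 16.55 at hour 12. The hours overlapped under ZT (11.31 to 14.71 against 14.14 to 16.16). Under CT they did not (11.04 to 15.17 against 15.43 to 17.22), and the hour difference of these markers was not tested. Pineal markers (5 of 9) were at 13.38 to 14.28 on the pineal arrays and at most 8.01 on the retina arrays, as labelled. Apart from a fit with the lens level as a covariate, the part of these differences in the results was not tested, and the main results are also given without CT12 array 1. Levels are log2(intensity + 16) after quantile normalization, and a difference "passed" where its p in limma, adjusted by Benjamini and Hochberg over 5244 probe sets, was under 0.05.

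**Figure D1:**
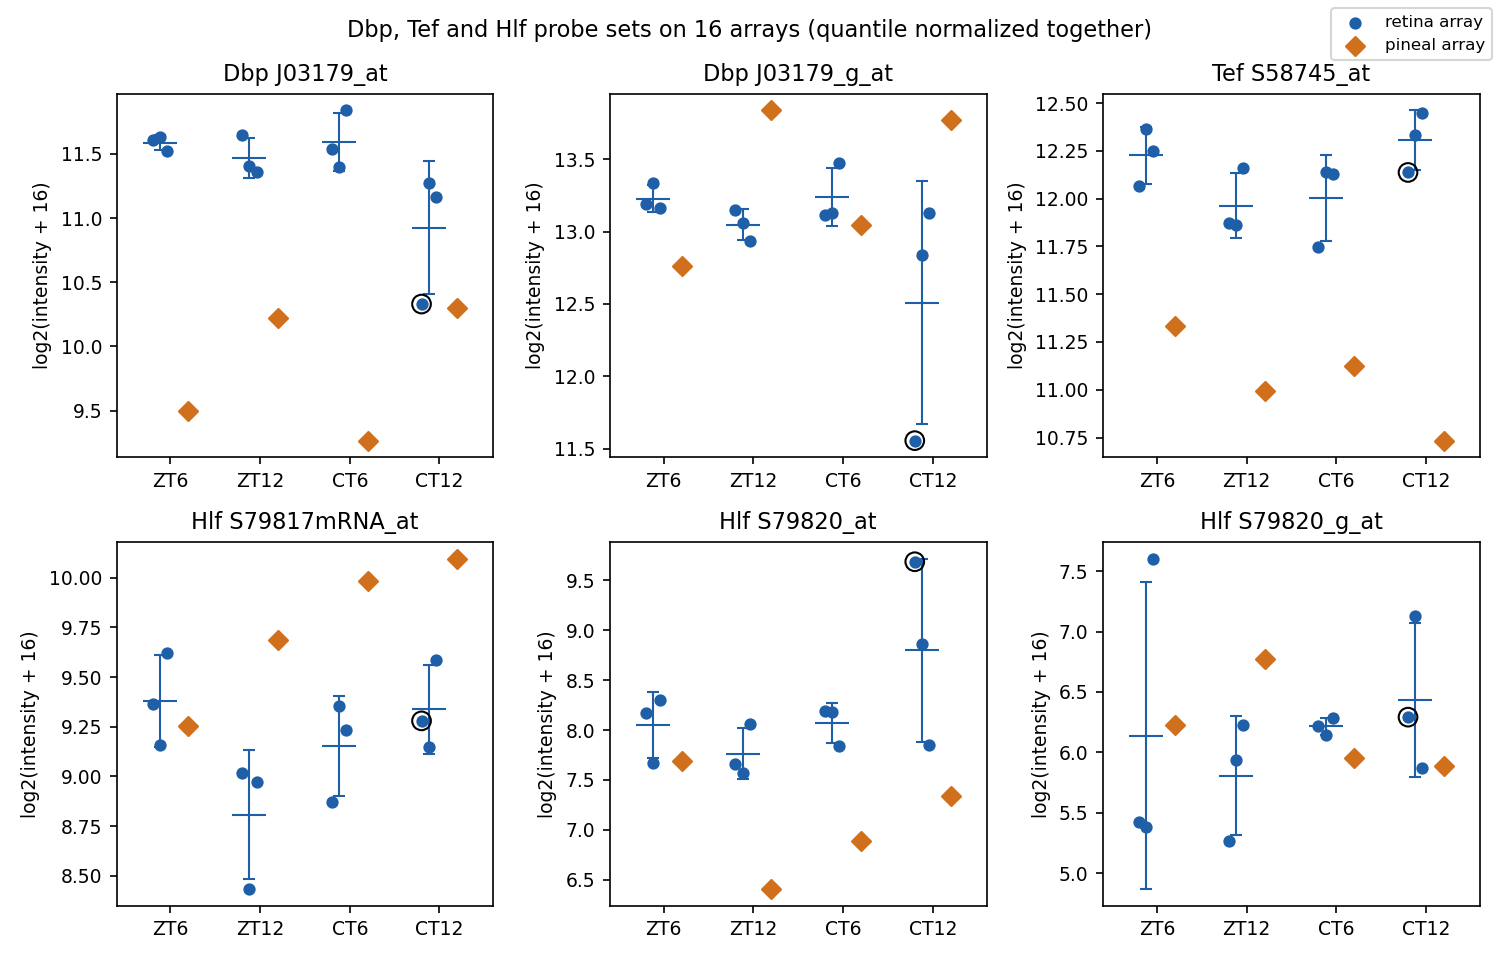
Level of the 6 probe sets on each of the 16 arrays, as log2(intensity + 16) after the arrays were quantile normalized together. Blue points are retina arrays with their mean and SD (n = 3), orange diamonds are single pineal arrays, and the ring marks retina CT12 array 1; all pineal values of Dbp J03179_at and Tef lie below all 12 retina values.

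In the retina, neither Dbp, Tef nor Hlf passed in any of the 7 comparisons of hour and regime. Dbp is the family member best known for a strong daily rhythm. For Dbp J03179_at the ZT6 arrays 1 to 3 were at 11.67, 11.69 and 11.59, and the ZT12 arrays at 11.71, 11.47 and 11.43. The CT6 arrays were at 11.61, 11.47 and 11.89, and the CT12 arrays at 10.44, 11.35 and 11.25. The groups overlapped under ZT, and under CT every hour 12 array lay below every hour 6 array, CT12 array 1 by the widest margin; this is the array with the lowest rod, ganglion cell and synaptic markers and the highest lens markers. The differences, hour 12 minus hour 6, were -0.11 ± 0.23 (standard error; adjusted p = 0.960) under ZT and -0.64 ± 0.23 (adjusted p = 0.146) under CT. Without CT12 array 1 the CT difference was -0.35 ± 0.15 (adjusted p = 0.247).

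The second Dbp probe set, J03179_g_at, was at 13.13, 13.27 and 13.10 on the ZT6 arrays and at 13.10, 13.01 and 12.89 on the ZT12 arrays. The CT6 arrays were at 13.06, 13.07 and 13.41, and the CT12 arrays at 11.62, 12.80 and 13.07. CT12 array 1 was again the lowest of all 12, and CT12 array 3 overlapped with the CT6 arrays. The difference was -0.17 ± 0.31 (adjusted p = 0.960) under ZT and -0.68 ± 0.31 (adjusted p = 0.182) under CT, where it was -0.24 ± 0.15 (adjusted p = 0.411) without CT12 array 1. Leaving out CT12 array 3 in its place gave -0.97, with an adjusted p of 0.0425, in a fit where 24.9% of all probe sets passed, so this pass does not set Dbp apart. With the mean lens marker level as a covariate the CT differences were -0.48 for J03179_at and -0.41 for J03179_g_at (adjusted p = 0.634 and 0.677).

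Over both regimes, 4 of the 6 hour 12 arrays lay below all 6 hour 6 arrays for each Dbp probe set. The mean differences were -0.38 for J03179_at (exact permutation test, two-sided p = 0.0303) and -0.43 for J03179_g_at (exact permutation p = 0.0152). Without CT12 array 1 they shrank to -0.21 and -0.20 (exact permutation p = 0.0606 and 0.0303), with 3 of 5 hour 12 arrays below all hour 6 arrays. Adjustment by Benjamini and Hochberg over the 12 exact tests of single probe sets with all arrays gave p = 0.0606 and 0.0364 for the all-array differences. The 12 pool the hour test and the pineal against retina test of each of the 6 probe sets. Small p values of the tissue tests lower the adjusted p of the hour tests in such a pool. The hour tests were not adjusted alone, so 0.0364 is not read as a pass for the hour. Exact tests without CT12 array 1, and those of the difference between the 2 Dbp probe sets, were outside the 12. The other exact p values printed are not adjusted. In the fit across all probe sets the same contrasts had adjusted p of 0.276 and 0.317.

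Tef, the family member named thyrotroph embryonic factor, showed no common direction in the retina. The ZT6 arrays were at 12.09, 12.36 and 12.26, the ZT12 arrays at 11.91, 11.91 and 12.18, the CT6 arrays at 11.80, 12.16 and 12.15 and the CT12 arrays at 12.16, 12.33 and 12.44. The hours overlapped under ZT, and under CT their ranges met at 12.16. The difference was -0.24 ± 0.16 (adjusted p = 0.791) under ZT and 0.27 ± 0.16 (adjusted p = 0.254) under CT, and over both regimes it was 0.02 ± 0.11 (adjusted p = 0.934), a value whose sign turned on the values as deposited and with a common median. Without CT12 array 1 the CT difference was 0.35 (adjusted p = 0.278).

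Hlf, the hepatic leukemia factor, had the largest difference under ZT among the probe sets that passed the filter. On S79817mRNA_at the ZT6 arrays were at 9.47, 9.27 and 9.73 and the ZT12 arrays at 9.12, 8.54 and 9.08, with no overlap. The CT6 arrays were at 8.98, 9.47 and 9.34 and the CT12 arrays at 9.39, 9.26 and 9.70, which overlapped. The difference was -0.58 ± 0.22 under ZT (unadjusted p = 0.0226, adjusted p = 0.450) and 0.19 ± 0.22 under CT (adjusted p = 0.555). Without CT12 array 1 the CT difference was 0.22 (adjusted p = 0.629).

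Of the 4 probe sets tested, 0 passed for ZT12 against ZT6, where 0.286% of all probe sets passed, and 0 for CT12 against CT6, where 0.0381% passed. The count was also 0 for hour 12 against hour 6 over both regimes (0.21% of all probe sets). At an unadjusted p under 0.05 the counts of the 4 were 1, 1 and 1, beside 452, 1438 and 923 of all 5244 probe sets. Adjusted shares as low as these over all probe sets leave little to read from a count of 0.

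Between regimes at a fixed hour, levels at hour 6 were close and those at hour 12 split by gene. CT6 minus ZT6 was 0.00 and 0.01 for the Dbp probe sets, -0.20 for Tef and -0.23 for Hlf, with adjusted p of 1.0 for each of the 4. Of these, 0 passed, adjusted or not. Over all 5244 probe sets 0.0% passed after adjustment and 266 had an unadjusted p under 0.05. CT12 minus ZT12 was -0.52 ± 0.23 and -0.50 ± 0.31 for the Dbp probe sets, 0.31 ± 0.16 for Tef and 0.54 ± 0.22 for Hlf. Of these 4, 0 passed, with adjusted p from 0.169 to 0.294, where 0.61% of all probe sets passed. An unadjusted p under 0.05 was reached by 2 of the 4 and by 1373 of all 5244 probe sets. Without CT12 array 1 the Dbp differences at hour 12 were -0.24 and -0.06, and those of Tef and Hlf were 0.38 and 0.57. Averaged over both hours, CT minus ZT was between -0.26 and 0.15 for the 4, and 0 passed, adjusted or not. Over all 5244 probe sets 0.0% passed after adjustment and 621 had an unadjusted p under 0.05. The Dbp values were -0.12 and -0.02 without CT12 array 1.

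The time effects under CT and ZT differed in sign for Tef and Hlf. The CT effect minus the ZT effect was 0.51 ± 0.23 for Tef (unadjusted p = 0.0459, adjusted p = 0.303) and 0.77 ± 0.31 for Hlf (unadjusted p = 0.0307, adjusted p = 0.278). For the Dbp probe sets it was -0.53 ± 0.33 and -0.51 ± 0.44, and without CT12 array 1 it was -0.24 ± 0.20 and -0.07 ± 0.20. Of the 4, 0 passed, where 0.0191% of all probe sets passed. An unadjusted p under 0.05 was reached by 2 of the 4 and by 841 of all 5244 probe sets.

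**Figure D2:**
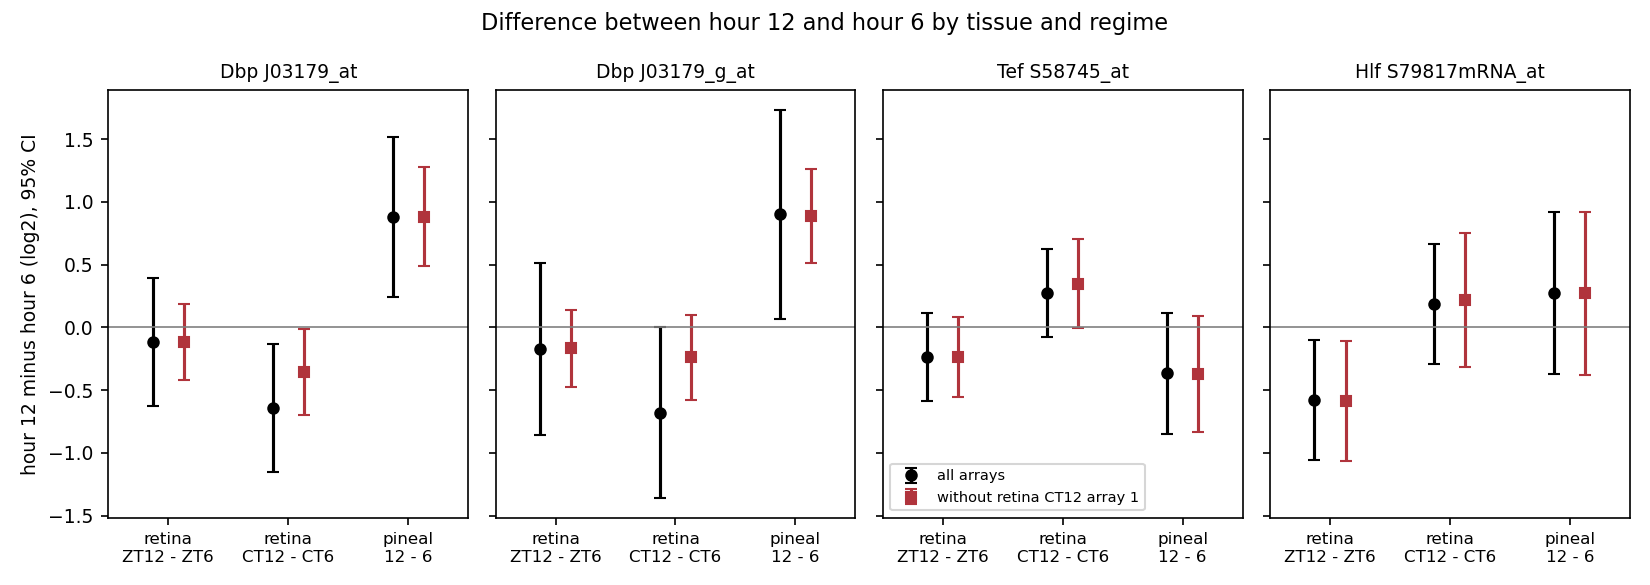
Hour 12 minus hour 6 on the log2 scale with its 95% confidence interval, for the 4 probe sets that passed the filter, in the retina under ZT and CT (3 against 3 arrays each) and in the pineal gland (2 against 2 arrays, fitted with the retina arrays). Black circles use all arrays and red squares leave out retina CT12 array 1; the Dbp probe sets lie at 0.88 and 0.90 in the pineal gland and below 0 in the retina.

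In the pineal gland, Dbp was higher at hour 12 than at hour 6 in both regimes on both probe sets. J03179_at was at 9.50 at ZT6 and 10.22 at ZT12, and at 9.27 at CT6 and 10.30 at CT12. J03179_g_at was at 12.76 at ZT6 and 13.84 at ZT12, and at 13.04 at CT6 and 13.77 at CT12. The 2 hour 12 arrays thus lay above the 2 hour 6 arrays on each probe set. Blood markers (5 of 8) moved with the hour on these arrays, at 13.42 and 12.98 at hour 6 of ZT and CT and 12.44 and 12.34 at hour 12, and pineal markers were at 13.41 and 13.38 against 14.04 and 14.28; their part in the result was not tested. The pairs differed by 0.72 (1.65-fold) under ZT and 1.03 (2.05-fold) under CT on J03179_at, and by 1.08 (2.11-fold) and 0.72 (1.65-fold) on J03179_g_at. As deposited, without further normalization, J03179_g_at had intensities of 7389 and 16724.5 at ZT6 and ZT12, and of 9559 and 16084.6 at CT6 and CT12.

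With 1 pineal array per condition, the fit takes the spread of the pineal arrays to be that of the retina arrays. It gave a pineal difference of 0.88 ± 0.29 for J03179_at (adjusted p = 0.207) and 0.90 ± 0.38 for J03179_g_at (adjusted p = 0.393). Thus 0 of 4 probe sets passed, where 1.66% of all probe sets passed. An unadjusted p under 0.05 was reached by 2 of the 4 and by 547 of all 5244 probe sets. Without retina CT12 array 1 the differences were 0.88 ± 0.18 (adjusted p = 0.0151) and 0.89 ± 0.17 (adjusted p = 0.0111). Both Dbp probe sets passed, where 5.09% of all probe sets passed. They read 1 gene on the same arrays and are not independent passes. Both differences were nearly the same in the 2 fits, and the standard errors were smaller without that array. Without the pineal ZT12 array, whose labels disagree on the hour, the fitted differences were 1.19 and 1.13. That fit fills the missing array with the retina difference between ZT12 and CT12. The pineal pair left, CT12 minus CT6, differed by 1.03 on J03179_at and 0.72 on J03179_g_at.

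Tef was lower and Hlf S79817mRNA_at higher at hour 12 in both regimes of the pineal gland, and neither passed. Whether they differed from Dbp was not tested. Tef was at 11.34 at ZT6 and 10.99 at ZT12, and at 11.12 at CT6 and 10.73 at CT12, lower at hour 12 by 0.34 and 0.39. The fitted difference for Tef was -0.37 ± 0.22 (adjusted p = 0.694). Hlf S79817mRNA_at was at 9.25 at ZT6 and 9.69 at ZT12, and at 9.99 at CT6 and 10.10 at CT12, with a fitted difference of 0.27 ± 0.30 (adjusted p = 0.947; 95% confidence interval -0.37 to 0.92). The hour 6 and hour 12 arrays overlapped for Hlf and did not overlap for Tef.

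The difference between the tissues in their hour effect, pineal minus retina, was 1.27 ± 0.34 for Dbp J03179_at (adjusted p = 0.119) and 1.36 ± 0.44 for J03179_g_at (adjusted p = 0.223). For Tef it was -0.39 ± 0.26 and for Hlf 0.47 ± 0.34, and 0 of the 4 passed, where 0.629% of all probe sets passed. An unadjusted p under 0.05 was reached by 2 of the 4 and by 606 of all 5244 probe sets. Without retina CT12 array 1 both Dbp probe sets passed, at 1.12 ± 0.21 (adjusted p = 0.0145) and 1.10 ± 0.20 (adjusted p = 0.0120), where 3.38% of all probe sets passed. Tef and Hlf stayed at -0.41 (adjusted p = 0.468) and 0.46 (adjusted p = 0.582).

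Averaged over conditions, the pineal gland had less Tef than the retina, while the Dbp and Hlf differences depended on the probe set. Both normalized together, Tef was at 10.73 to 11.34 on the pineal arrays and at 11.75 to 12.45 on the retina arrays, with every pineal array below every retina array. The difference was -1.08 ± 0.14, or 2.11-fold lower (adjusted p = 5.31e-06; exact permutation test, two-sided p = 0.00110, the smallest it can give). Within conditions the pineal array lay 0.97 below the mean of its 3 retina arrays at ZT12, 0.89 below at ZT6, 0.88 below at CT6 and 1.57 below at CT12.

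Hlf S79817mRNA_at was at 9.25 to 10.10 in the pineal gland and at 8.43 to 9.62 in the retina, and 3 of the 4 pineal arrays lay above all 12 retina arrays. The difference was 0.59 ± 0.18 (adjusted p = 0.00850; exact permutation p = 0.0121). On the values as deposited it was 0.09 (adjusted p = 0.670). Scaling moved all probe sets: the median difference over all of them was 0.09 after quantile normalization, -0.23 as deposited and 0.28 with a common median. Tef was below that median under each of these scalings, at -1.08, -1.39 and -0.87.

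Dbp J03179_at was at 9.27 to 10.30 in the pineal gland and at 10.33 to 11.84 in the retina, so every pineal array lay below every retina array, the nearest being retina CT12 array 1. The difference was -1.57 ± 0.24, or 2.97-fold lower (adjusted p = 3.22e-05; exact permutation p = 0.00110). On J03179_g_at the pineal arrays were at 12.76 to 13.84 and the retina arrays at 11.55 to 13.47, and the difference was 0.35 ± 0.28 (adjusted p = 0.271). With a common median it was 1.10 and passed (adjusted p = 0.00263), where 78.0% of all probe sets passed. Without retina CT12 array 1 the tissue differences were -1.67 and 0.21 for the Dbp probe sets, -1.09 for Tef and 0.58 for Hlf. The same 3 of the 4 passed, where 80.9% of all probe sets passed. In all, 3 of the 4 probe sets passed between tissues with every array in, where 75.8% of all probe sets passed, so a pass in this comparison does not set the family apart.

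The sign of the tissue difference on J03179_g_at followed the hour. The pineal array lay 0.46 below the mean of its retina arrays at ZT6 (-0.46) and 0.19 below at CT6 (-0.19), in both cases below all 3 of them. It lay 0.79 above at ZT12 and 1.26 above at CT12, in both cases above all 3, and the CT12 value was 0.78 without retina CT12 array 1. As deposited, the CT6 value was 13.23 and no longer below the retina mean of 13.19. On J03179_at the pineal array was below all 3 in every condition, with differences of -2.09 and -2.33 at hour 6 of ZT and CT and of -1.25 and -0.62 at hour 12, the last being -0.92 without that array. Relative to the retina, both probe sets thus lay higher at hour 12 than at hour 6.

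The 2 Dbp probe sets disagreed on the difference between the tissues. Within an array, J03179_g_at minus J03179_at was 1.22 to 1.96 in the retina (mean 1.61 ± 0.17 SD, n = 12) and 3.27 to 3.78 in the pineal gland (mean 3.53 ± 0.22 SD, n = 4). The groups did not overlap, and the difference was 1.92 log2 units (exact permutation p = 0.00110), or 2.63 on the values as deposited. This contrast was chosen after the values were seen. Which probe set tracks the Dbp transcript in the pineal gland was not tested, so no tissue difference in Dbp is given as settled.

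**Figure D3:**
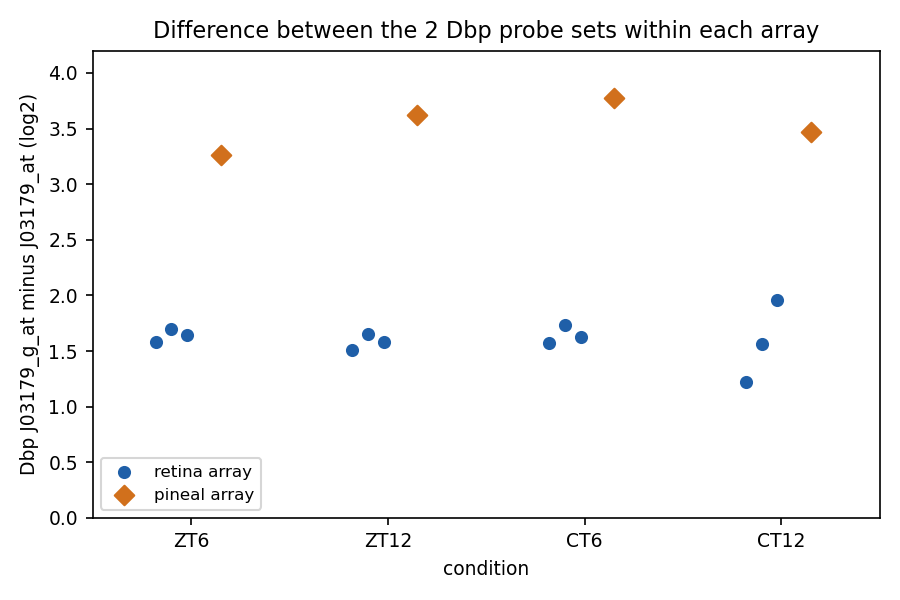
Difference between the 2 Dbp probe sets (J03179_g_at minus J03179_at, log2 units) within each array, for retina arrays (blue points) and single pineal arrays (orange diamonds) by condition. The pineal arrays sit between 3.27 and 3.78 and the retina arrays between 1.22 and 1.96.

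The dim Hlf probe sets gave little. S79820_at had mean retina levels of 8.15 at ZT6, 7.86 at ZT12, 8.18 at CT6 and 8.91 at CT12, where CT12 array 1 was the highest at 9.80 and array 3 the lowest at 7.96. On the pineal arrays it was at 7.69, 6.41, 6.89 and 7.34 for ZT6, ZT12, CT6 and CT12, against 7.57 to 9.68 in the retina, and 3 of 4 pineal arrays lay below all retina arrays. The difference was -1.09 (exact permutation p = 0.00440), opposite in sign to that of S79817mRNA_at. S79820_g_at ranged from 5.26 to 7.60 in the retina and from 5.88 to 6.77 in the pineal gland, with a difference of 0.06 (exact permutation p = 0.826). The 3 Hlf probe sets therefore gave 1 higher value, 1 lower value and 1 near 0 between the tissues. As for Dbp, no tissue difference in Hlf is given as settled.

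The other genes around the PAR bZIP factors are given from 3 lists. The first holds the core clock and its feedback genes, of which 9 of 23 were on the array and 8 passed the filter. With all arrays 0 of the 8 passed in any retina comparison. For hour 12 against hour 6 over both regimes, 3 of the 8 had an unadjusted p under 0.05, beside 923 of all 5244 probe sets. The median of the 8 in that contrast was -0.25, beside -0.05 over all probe sets. It was -0.11 under ZT and -0.44 under CT, beside -0.02 and -0.06. The medians over both regimes and under CT without CT12 array 1 were -0.16 and -0.14, beside -0.03 and -0.05. Rorb, a retinoid-related orphan receptor, then passed for the hour over both regimes at 1.16 ± 0.18 (adjusted p = 0.0141; 0.44 ± 0.66 with all arrays) and under ZT at 1.22 ± 0.23 (adjusted p = 0.0383), 1 of 8 in each, where 1.3% and 1.51% of all probe sets passed. With all arrays, the smallest p values in that contrast were those of Bhlhe41, a repressor of E-box genes, at -0.54 ± 0.14 (adjusted p = 0.170), and Per2, a repressor of CLOCK and BMAL1, at 0.66 ± 0.19 (adjusted p = 0.187).

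In the pineal gland Per2 was higher at hour 12 by 4.48 ± 0.33 (22.3-fold; adjusted p = 1.79e-05), and it was the only 1 of the 8 to pass, where 1.66% of all probe sets passed. The Per2 effect exceeded that in the retina by 3.82 ± 0.38 (adjusted p = 0.000411). Nr1d2, a REV-ERB repressor, was at 0.88 ± 0.26 (adjusted p = 0.143), a fitted difference close to those of the Dbp probe sets. Nr1d1, the related REV-ERB alpha, was at -0.26 ± 0.25. The median over the list was 0.40 in the pineal gland, beside -0.03 over all probe sets. The tissue difference of the hour effect was above 0 in 8 of 8, with a median of 0.71, beside 0.01 over all probe sets. The 8 genes share the same arrays and are not independent readings. Without retina CT12 array 1, 3 of 8 passed for the pineal hours, where 5.09% of all probe sets passed: Per2 at 4.50, Rorb at 1.48 (adjusted p = 0.0315) and Nr1d2 at 0.87 (adjusted p = 0.0454). The tissue difference of the hour effect was then above 0 in 6 of 8, with a median of 0.37, beside -0.01 over all probe sets.

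**Figure D4:**
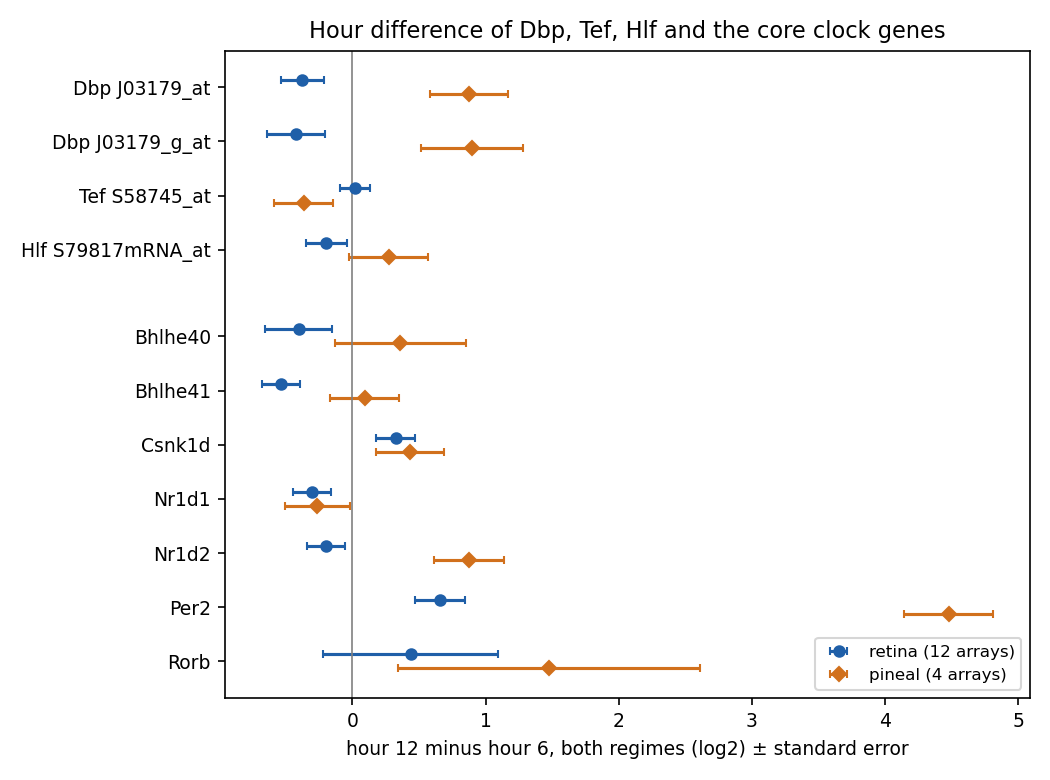
Hour 12 minus hour 6 over both regimes (log2 units, ± standard error) in the retina (blue circles, 12 arrays) and the pineal gland (orange diamonds, 4 arrays), for the 4 member probe sets and the 7 core clock genes whose brightest probe set was the same in both fits. Per2 is highest in the pineal gland at 4.48. Nr1d2 (0.88) lies beside the Dbp probe sets (0.88 and 0.90) there, while the related Nr1d1 is negative.

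Between tissues, 3 of the 8 clock genes passed, with Nr1d2 and Bhlhe41 higher in the pineal gland by 1.04 ± 0.21 and 1.32 ± 0.17 and Nr1d1 lower by 1.65 (-1.65 ± 0.14). This count lies below the share of all probe sets that passed between tissues, 75.8%, and it was 4 of 8 without retina CT12 array 1, with Bhlhe40 added at -0.63 (80.9% of all). The second list holds the D-box repressor Nfil3 and the related C/EBP factors, of which 6 of 7 were on the array. In the retina 4 passed the filter, namely Cebpb, Cebpd, Cebpg and Ddit3, so Nfil3 itself was not tested. Of the 4, 0 passed the test. For the hour over both regimes 3 had an unadjusted p under 0.05, beside 923 of all 5244 probe sets. Cebpg, a C/EBP partner without an activation domain, was at -0.89 ± 0.20 for hour 12 against hour 6 (adjusted p = 0.139), and Ddit3, a stress-induced member, at -0.90 ± 0.30 (adjusted p = 0.223). The list's median was -0.56, beside -0.05 over all probe sets. Between tissues 1 of 3 passed, Cebpg, at -2.58 ± 0.32, where 75.8% of all probe sets passed, and 2 of 3 without retina CT12 array 1, with Cebpd added at 0.39 (80.9% of all). For the pineal hours 0 of 3 passed, adjusted or not. Over all 5244 probe sets 1.66% passed after adjustment and 547 had an unadjusted p under 0.05.

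The third list holds known targets of the PAR bZIP factors, mostly enzymes of liver and kidney, of which 21 of 30 were on the array and 7 passed the filter in the retina and 8 over all 16 arrays. In the retina 0 of 7 passed. For the hour over both regimes 2 had an unadjusted p under 0.05, beside 923 of all 5244 probe sets. The list's median for hour 12 against hour 6 was -0.13, beside -0.05 over all probe sets. Without CT12 array 1 it was -0.05, beside -0.03. The smallest p was that of Per2, at 0.66 ± 0.19 (adjusted p = 0.187). Next came Cyp2b2, a drug-metabolizing cytochrome, at 1.16 ± 0.35 (adjusted p = 0.202). In the pineal gland 1 of 8 passed (1.66% of all probe sets), which is Per2 and is also in the clock list, and the other 7 lay between -0.10 and 0.53. Between tissues 5 of 8 passed, where 75.8% of all probe sets passed. Cyp2a2, Cyp3a23-3a1 and Cyp2a1 were higher in the pineal gland, by 1.28 ± 0.23, 0.80 ± 0.13 and 0.60 ± 0.23, and Cyp2b2 (-1.54 ± 0.36) and Por (-0.31 ± 0.12), the reductase that serves the cytochromes, were lower.

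Across the 12 retina arrays the likeness between members depended on the pair. The 2 Dbp probe sets correlated at r = 0.953, and at 0.775 over the 11 arrays without CT12 array 1, while over all 16 arrays, where the tissues differ in their ratio, r was 0.171. Tef and Hlf S79817mRNA_at correlated at 0.678, and at 0.680 over the 11 arrays. Dbp J03179_at correlated with Tef at -0.19 and with Hlf at -0.12. All points of such a correlation share their array and its normalization.

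The genes most like Dbp J03179_g_at over the 12 arrays were Ckmt1 (r = 0.990), Map2 (0.986), Camkk1 (0.986), Bmal1 (0.986) and Lin7a (0.984), several of them genes of neurons. Over the 11 arrays without CT12 array 1 their r was 0.916, 0.881, 0.918, 0.934 and 0.906, and Prpf3 came first at 0.965, although its r over 12 arrays was -0.01. For Tef the closest were Gata6 (0.870), Or13p4 (0.824), Adora2a (0.813), Aqp9 (0.799) and Ctla4 (0.798), and over the 11 arrays Stk39 and Ssr3 joined the first 5 at 0.840 and 0.833. For Hlf S79817mRNA_at they were Syngr1 (0.834), Bmyc (0.822), Ptpn23 (0.808), Lif (0.799) and Shisa4 (0.795), and over the 11 arrays Ech1 and Pelo joined at 0.859 and 0.828. No gene was among the 5 closest of more than 1 member.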

How the data were processed

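The authors deposited linear intensities, 1 value per probe set and array, per the file headers and values; the summarization software, background correction and scaling were not given in the sources used here. Gene symbols came from the platform annotation, in which 7006 probe sets carry 1 symbol, 308 several and 1426 none. Groups, tissue and hour came from the titles. The 12 retina arrays, and all 16 arrays for comparisons with the pineal gland, were quantile normalized and transformed as log2(intensity + 16), and probe sets whose mean reached the 40th percentile were kept (5244). Two-sided moderated tests came from limma 3.58.1 (R 4.3.3) and were adjusted by Benjamini and Hochberg over these probe sets. The retina fit had 4 group means and 8 residual degrees of freedom. The tissue fit had condition and tissue terms, and a tissue by hour term was added for the hour effects. Single values were also tested by exact permutation in SciPy 1.17.1. For other genes of a list the brightest probe set was used. The number of arrays limits the precision. The procedure was tested on simulated data.

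Every Dbp, Tef and Hlf probe set is named; of the other lists, the genes that passed and those with the smallest p are named; the 5 genes of highest Pearson correlation with the brightest probe set of each member are named. The members, lists and alternatives were chosen with earlier results of these data known. Promoter windows came from a RefSeq table on GRCr8 that matched 2 of the 3 genes.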

Additional observations from a re-analysis of the deposited data

Results flagged for a closer look

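The hour effect of Dbp, hour 12 minus hour 6, differed between the tissues by a test of the difference itself when retina CT12 array 1 was left out. Pineal minus retina was then 1.12 log2 units on J03179_at (adjusted p = 0.0145) and 1.10 on J03179_g_at (adjusted p = 0.0120), by limma over 5244 probe sets. In that fit 3.38% of all probe sets passed. On both probe sets the hour 12 pineal arrays lay above the hour 6 arrays in 2 of 2 regimes. With all 16 arrays the differences were 1.27 and 1.36 and did not pass (adjusted p = 0.119 and 0.223). No level of a member on a single array could be examined for outliers by group, since groups held 3 arrays or 1.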

How the results depend on the processing

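Over 942 alternatives of 40 member differences, 907 kept direction and side of the threshold, 23 changed sign, 11 came to pass and 1 no longer passed. Sign changes touched 7 differences, none of which passed. CT6 against ZT6 became -0.025 (as deposited), -0.055 (array weights), -0.00155 (the 2 groups alone) and -0.14 (without the arrays numbered 3) for Dbp J03179_at, and -0.025 (array weights) and -0.14 (without the arrays numbered 3) for J03179_g_at. Leaving out single arrays gave -0.11 to 0.098 and -0.10 to 0.069. For Tef, hour 12 against hour 6 was -0.078 (as deposited), -0.052 (common median) and -0.026 (without the arrays numbered 3), and -0.042 to 0.055 without single arrays; CT against ZT was -0.013 (as deposited) and -0.00475 (common median).

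Array weights, whose estimation reported a convergence warning, made 2 members pass for CT12 against CT6 (Dbp J03179_g_at -0.33, Tef 0.28; Hlf -0.046) and 1 each for CT12 against ZT12 (Tef 0.34), hour 12 against hour 6 (Dbp J03179_g_at -0.24) and the difference of time effects (Tef 0.52), in fits where 48.1%, 49.0%, 27.3% and 26.1% of all probe sets passed. Between tissues, Dbp J03179_g_at passed with a common median (1.10) and Hlf no longer passed as deposited (0.087); the cause was not tested. The filter at the 60th percentile left Hlf untested.

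Leaving out single arrays, 0 to 1 members passed for CT12 against CT6 (Dbp J03179_g_at -0.97 to -0.24). The 1 passed without CT12 array 3, where 24.9% of all probe sets passed. For pineal hour 12 against hour 6, 0 to 2 passed, with Dbp J03179_at at 0.57 to 1.19, J03179_g_at at 0.66 to 1.13 and Hlf at -0.21 to 0.75. For the tissue difference of the hour effect, 0 to 2 passed, at 0.96 to 1.58, 1.10 to 1.57 and -0.014 to 0.95. The 2, both of them probe sets of Dbp, passed only without retina CT12 array 1, in fits where 5.09% and 3.38% of all probe sets passed. Hlf changed sign only without the pineal ZT6 array, in fits that fill this array from the retina. The pineal pair left for Hlf, CT12 minus CT6, differed by 0.11. The 4 pineal arrays alone, an alternative chosen after seeing the data, gave Dbp differences of 0.89 and 0.96 (adjusted p = 0.307 for both), with 0 of all probe sets passing and 687 at an unadjusted p under 0.05.

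Title numbers gave no clear pairing of the arrays, and 5 of 12 arrays correlated best with their own number. Deviations correlated from 0.0040 to 0.41 between arrays numbered 1. The ranges were -0.41 to 0.11 for number 2 and -0.14 to 0.36 for number 3. Under a replicate block of title numbers no member call changed, for example CT12 against CT6 for Dbp J03179_g_at at -0.68 (adjusted p = 0.167), and all probe sets passing fell from 32 to 8 for CT12 against ZT12 and from 11 to 7 for the hour. Without single arrays, counts over all probe sets went from 0 to 1306 for CT12 against CT6 (2 with all arrays), 0 to 1072 for CT12 against ZT12 (32), 1 to 79 for ZT12 against ZT6 (15) and 3 to 178 for the hour (11). Array weights moved these counts further, to 2524, 2568, 279 and 1432. The pineal hour count was 42 to 267 (87). Array intensities of dim probe sets, as for 2 of 3 Hlf probe sets, limit what can be read.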
